A study of Mus musculus with 6 samples.

Results

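The genes described here were the Nrf2 gene, the gene of its repressor Keap1 and 8 genes that Nrf2 is known to switch on. Nfe2l2, which encodes Nrf2, Keap1, Hmox1, Nqo1, Gclc, Gclm, Txnrd1, Srxn1, Slc7a11 and Osgin1 were chosen by symbol for their place in the pathway. These members and the gene lists below were chosen with earlier results of these data known. The table held 1 row for each member, so 10 of its 54532 genes are members. RNA sequencing compared MC3T3-E1 cells in osteogenic medium, with 3 samples, with MC3T3-E1 cells in osteogenic medium that also held metformin, with 3 samples. MC3T3-E1 is an established mouse pre-osteoblast line, and the labels call the cells osteoblasts. The treatment time of 3 days and the 3 biological replicates per condition are taken from the methods of the study, and the dose of 0.2 mM metformin from its account of the sequencing, since the labels give neither time nor dose. Osteogenic medium adds β-glycerophosphate, ascorbic acid and dexamethasone, so the control samples also received a glucocorticoid and an antioxidant vitamin. Metformin is a biguanide drug of type 2 diabetes, and the study asked whether it protects osteoblasts from oxidative damage through AKT, Nrf2 and heme oxygenase 1. The sequenced samples received no hydrogen peroxide.

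Nrf2 is a transcription factor that is made and destroyed continuously. Keap1 binds the Nrf2 protein and hands it to a Cul3 ubiquitin ligase, and oxidants or electrophiles that modify Keap1 let Nrf2 accumulate, pair with small Maf proteins and bind antioxidant response elements in DNA. Its targets make and reduce glutathione and thioredoxin, detoxify quinones and degrade heme. In bone, both osteoblasts and osteoclasts are known to respond to the redox state of the cell. Because Nrf2 is controlled largely at the protein level, the level of Nfe2l2 RNA is not a measure of Nrf2 protein.

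The response element can be seen in the DNA before several of these genes. Promoter windows of 250 bases before and 50 bases after each start were taken from RefSeq (GRCm38.p6) and were found for 8 of the 10 members. Below are the 160 bases before the start of 5 members that hold the letters TGACNNNGC or TGAGNNNGC there, written 5′ to 3′ on the strand of the gene, with those letters, or their reverse complement, in capitals. They are shown because the genes differ in the number, kind and place of the elements, and because Osgin1, which did not pass the test with metformin, can be set beside Gclm, Txnrd1 and Srxn1, which rose. In Slc7a11 the letters TGATGCAAA, an amino acid response element bound by ATF4, are also in capitals.
Gclm (plus strand), chr3:122245397-122245556: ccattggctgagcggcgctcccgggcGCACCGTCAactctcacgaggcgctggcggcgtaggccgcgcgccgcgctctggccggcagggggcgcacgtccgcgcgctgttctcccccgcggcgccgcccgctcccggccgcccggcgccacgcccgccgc
Txnrd1 (plus strand, the second of 3 starts), chr10:82859046-82859205: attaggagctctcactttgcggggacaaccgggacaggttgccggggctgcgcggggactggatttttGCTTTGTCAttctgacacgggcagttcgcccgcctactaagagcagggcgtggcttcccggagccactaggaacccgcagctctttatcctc
Srxn1 (plus strand), chr2:152105364-152105523: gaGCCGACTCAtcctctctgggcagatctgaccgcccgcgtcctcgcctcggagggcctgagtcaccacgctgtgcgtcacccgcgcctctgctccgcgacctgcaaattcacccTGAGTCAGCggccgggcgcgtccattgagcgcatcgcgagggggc
Slc7a11 (minus strand), chr3:50443614-50443773: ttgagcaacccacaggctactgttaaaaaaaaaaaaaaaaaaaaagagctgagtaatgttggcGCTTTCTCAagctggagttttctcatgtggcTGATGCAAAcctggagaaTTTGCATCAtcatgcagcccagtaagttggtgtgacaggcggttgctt
Osgin1 (plus strand), chr8:119436987-119437146: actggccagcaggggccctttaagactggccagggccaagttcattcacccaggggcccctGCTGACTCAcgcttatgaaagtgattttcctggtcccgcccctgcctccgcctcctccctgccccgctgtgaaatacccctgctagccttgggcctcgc

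Srxn1 held 3 matches in its window, which were TGAGTCGGC on the opposite strand 158 bases before the start, TGAGTCAGC on the strand of the gene 45 bases before it, and TGACCTAGC on the opposite strand 28 bases after it. Gclm held TGACGGTGC on the opposite strand 134 bases before the start, and Txnrd1 held TGACAAAGC on the opposite strand 92 bases before its second start and no match at the other 2 starts. The Osgin1 match, TGAGTCAGC on the opposite strand 99 bases before the start, also holds the letters of an AP-1 site (TGAGTCA, or TGACTCA on the other strand), as does the match of Srxn1 at 45 bases. In Nfe2l2 the letters TGACTCCGC stood on the strand of the gene 240 bases before the start, farther out than the stretches printed here. Slc7a11 held TGAGAAAGC on the opposite strand 97 bases before its start and the amino acid response element once on each strand, 66 and 48 bases before it. The windows of Keap1 and Nqo1 held neither form, and sequence outside the windows was not searched. Of all 32851 RefSeq windows, searched on both strands, 12.4% held TGACNNNGC, 17.6% held TGAGNNNGC, 27.8% held at least 1 of them, and 0.271% held TGATGCAAA. Counted by gene, 4 of the 8 members with a window held TGACNNNGC, the form searched first, beside 14% of all genes. Both TGAGNNNGC and TGATGCAAA were added after the windows had been seen, so the share of windows with TGATGCAAA is no test of Slc7a11. With TGAGNNNGC, 6 of the 8 members held either form, beside 30.8% of all genes. These are matches of letters and were not tested for binding.

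**Figure D1:**
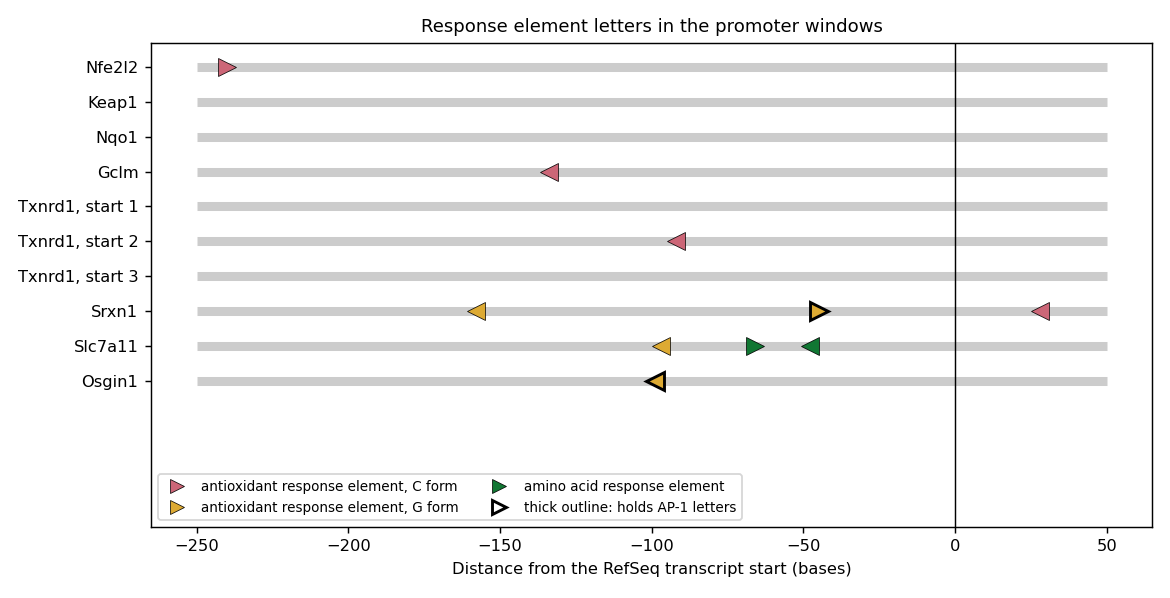
Positions of the searched letters in the promoter windows of 8 members, by distance from the RefSeq transcript start in bases, with triangles pointing right for the strand of the gene and left for the opposite strand. Srxn1 holds 3 antioxidant response element matches, Slc7a11 holds 1 with an amino acid response element on each strand, and Keap1 and Nqo1 hold none.

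The values were read as FPKM, reads scaled by gene length and library size. The length of each member is that of all its annotated exons merged, 13922 bases for Slc7a11 and 1553 bases for Nqo1. Levels of different genes, and ratios between them, are therefore comparisons of FPKM and only roughly of transcript number. The reads behind the values could be recovered and came to 18399861 to 20652437 per sample in osteogenic medium and 19256672 to 22111790 with metformin. Limma with an intensity trend was fitted on log2(FPKM + 1) for 12681 genes that averaged at least 0.5 FPKM, and a gene was called at a Benjamini-Hochberg adjusted p under 0.05. Fold changes are differences on that log2 scale, metformin minus osteogenic medium, and understate the change of low genes. Control replicate 1 stood apart, with Pearson correlations across genes of 0.96 and 0.952 with the other controls, which had 0.988 with each other, and across genes its deviation fell with rising GC content (Spearman rho -0.668 over tested genes, which are not independent replicates). Of 10 osteoblast markers 9 had a mean of at least 1 FPKM, and they did not move as a class. Spp1 was at 6565 to 8357 FPKM in osteogenic medium and 2680 to 2727 FPKM with metformin. Ibsp, Dmp1, Runx2 and Phex were also lower in every sample with metformin, Runx2 at 28.56 to 34.15 and 25.79 to 27.45 FPKM. Phex was below 1 FPKM in every sample. Col1a1 was at 927 to 1585 FPKM in osteogenic medium and 2366 to 2576 FPKM with metformin. Col1a2 and Sp7 were also higher in every sample with metformin, and Bglap and Alpl overlapped between the groups. The sum of the 10, 10080 to 11830 FPKM against 6829 to 7222 FPKM, is carried by Spp1. Summed macrophage and osteoclast markers were at 245 to 273 FPKM against 150 to 163 FPKM, nearly all of it Ctsk, with Acp5 at 0 in every sample. The mitochondrially encoded genes took at least 6.36% of reads in each control and 2.72% to 3.16% with metformin. The chondrocyte markers summed to 26.6 to 39.9 FPKM against 28.7 to 30.5 FPKM, the adipocyte markers to at most 3.08 FPKM with Cidec at 0, and the muscle and endothelial markers to at most 0.131 FPKM with Myod1 and Myog at 0. The part of these differences in the results below was not tested, and in bulk RNA fewer cells of a type and less RNA per cell cannot be told apart.

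With metformin, several targets of Nrf2 rose while the RNA of Nrf2 itself fell. Nqo1, Gclm, Txnrd1 and Srxn1 rose, Nfe2l2 fell, and Keap1, Hmox1, Gclc and Osgin1 did not pass the test. Of the 10 members, 9 passed the filter on low values, and Slc7a11 did not. Of these 9, 4 were called higher, where 13.2% of all tested genes were, and 1 was called lower, where 9.28% of all tested genes were. The samples with metformin all lay above the controls for 5 of the 9, where this held for 23.6% of all tested genes, and all lay below for 1 of the 9, against 20.5%. The median log2 fold change of the 9 was 0.31, and that of all tested genes was 0.01. When a log2 fold change of at least 1 in size was also required, only Nqo1 stayed called.

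**Figure D2:**
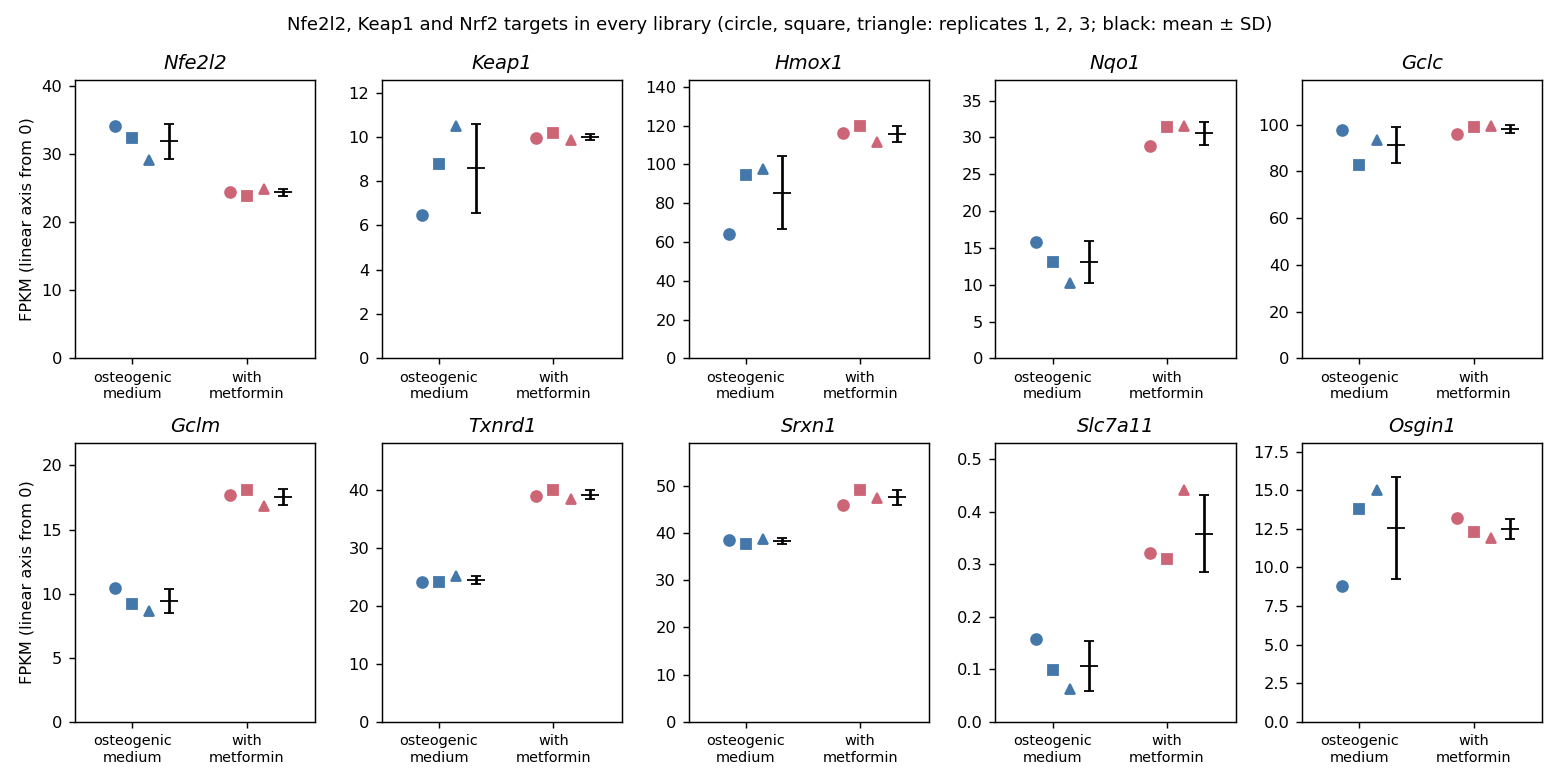
FPKM of the 10 members in every sample on linear axes that start at 0, with replicates 1, 2 and 3 as circle, square and triangle and the mean ± SD of 3 samples in black. Nqo1, Gclm, Txnrd1, Srxn1, Hmox1 and Slc7a11 lie higher in all 3 samples with metformin, Nfe2l2 lies lower in all 3, and the other members overlap between the groups.

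Nfe2l2 (ENSMUSG00000015839, chr2:75675513-75704641) encodes the transcription factor itself. Its level was 34.1, 32.3 and 29.2 FPKM in osteogenic medium and 24.4, 23.8 and 24.9 FPKM with metformin. All samples with metformin lay below all controls. The mean fell from 31.9 ± 2.51 to 24.4 ± 0.517 FPKM (SD, n = 3), a log2 fold change of -0.37 (SE 0.088, limma adjusted p = 0.0266). The call was lost with the replicate number as a block (adjusted p = 0.098) and without control replicate 2 (adjusted p = 0.0773) or any one of the metformin replicates 1, 2 and 3 (adjusted p = 0.115, 0.122 and 0.0992). Without control replicate 1 the fold change was -0.32 (adjusted p = 0.0077).

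Keap1 (ENSMUSG00000003308, chr9:21229730-21239361) encodes the adaptor that targets Nrf2 for degradation. Its level was 6.49, 8.79 and 10.5 FPKM in osteogenic medium and 9.95, 10.2 and 9.88 FPKM with metformin. The metformin samples were close together and fell inside the spread of the controls, of which replicate 1 was the lowest. The log2 fold change was 0.22 (SE 0.16, 95% interval -0.15 to 0.59, limma adjusted p = 0.360). Without control replicate 1 it was 0.05. The exons of Keap1 share 510 bases with Gm16754 on the opposite strand, and the strand setting of the counting is not given in the sources used here.

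The ratio of Nfe2l2 to Keap1, both in FPKM, sets the RNA of the factor against that of its repressor. It was 5.26, 3.68 and 2.78 in osteogenic medium and 2.46, 2.35 and 2.52 with metformin. Every ratio with metformin was below every control ratio, and the means were 3.91 ± 1.25 and 2.44 ± 0.0867 (SD, n = 3, exact two-sided permutation p = 0.1, the smallest that 3 against 3 can give). The highest ratio, 5.26, was that of control replicate 1, which stood apart. In it Keap1 differed from the mean of the other controls by a log2 value of -0.50 and Nfe2l2 by 0.15. The lowest control ratio, 2.78, was near the highest with metformin, 2.52.

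Hmox1 (ENSMUSG00000005413, chr8:75093621-75100589) encodes heme oxygenase 1, the enzyme that opens heme to biliverdin, iron and carbon monoxide, and the target the study followed as HO-1. Its level was 64.1, 94.5 and 97.8 FPKM in osteogenic medium and 116, 120 and 111 FPKM with metformin. The groups did not overlap, and control replicate 1 was well below the other controls. The means were 85.5 ± 18.6 and 116 ± 4.23 FPKM (SD, n = 3), with a log2 fold change of 0.46 (SE 0.17, 95% interval 0.05 to 0.86) that did not pass the test (limma adjusted p = 0.102). Without control replicate 1 the fold change was smaller, at 0.26, and passed (adjusted p = 0.0122), and after each library was corrected for GC content it was 0.41 (adjusted p = 0.0356). Both of these fits called more genes in all, 5559 and 4487 of the 12681 tested, against 2847 with all samples and no correction. In the other 12 alternatives Hmox1 did not pass, with a log2 fold change above 0 in each.

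Nqo1 (ENSMUSG00000003849, chr8:107388225-107403206) encodes a quinone reductase that transfers 2 electrons at once and so avoids reactive semiquinones. Its level was 15.9, 13.1 and 10.3 FPKM in osteogenic medium and 28.8, 31.4 and 31.5 FPKM with metformin. The lowest sample with metformin was above the highest control. The mean rose from 13.1 ± 2.81 to 30.6 ± 1.55 FPKM (SD, n = 3), 2.34-fold, with a log2 fold change of 1.18 (SE 0.15, limma adjusted p = 0.00242), the largest among the 9 tested members. Nqo1 was called in all 14 alternative fits, a number that leaves out the limit on fold size, with log2 fold changes of 1.03 to 1.32 in those that left out 1 sample. Its promoter window held neither form of the response element. Sequence outside that window was not searched, so an element farther from the start would have been missed.

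Glutamate-cysteine ligase, which makes the first and rate-limiting step of glutathione synthesis, has a catalytic subunit encoded by Gclc (ENSMUSG00000032350, chr9:77754535-77794485) and a modifier subunit encoded by Gclm (ENSMUSG00000028124, chr3:122245557-122270732), and the pair moved unequally. Gclm was at 10.4, 9.22 and 8.60 FPKM in osteogenic medium and at 17.7, 18.1 and 16.8 FPKM with metformin. The groups were clearly apart. Its mean rose from 9.41 ± 0.918 to 17.5 ± 0.652 FPKM (SD, n = 3), 1.86-fold, with a log2 fold change of 0.84 (SE 0.093, limma adjusted p = 0.00133), and it was called in all 14 alternative fits. Gclc was at 97.9, 82.8 and 93.6 FPKM in osteogenic medium and at 96.1, 99.2 and 99.4 FPKM with metformin. These overlapped, and the log2 fold change was 0.11 (SE 0.095, 95% interval -0.12 to 0.33, limma adjusted p = 0.471). The FPKM of Gclc was 9.40, 8.98 and 10.9 times that of Gclm in the controls and 5.44, 5.48 and 5.91 times with metformin. The ratio did not overlap between the groups, with means of 9.76 ± 0.997 and 5.61 ± 0.258 (SD, n = 3, exact two-sided permutation p = 0.1, the smallest possible). Gclm shares 296 exon bases with Gm17494 on the opposite strand and 244 with Gm6061 on the same strand, so some of its reads could be split or shared.

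Txnrd1 (ENSMUSG00000020250, chr10:82833951-82897712) encodes the cytosolic thioredoxin reductase, a selenoprotein that uses NADPH to keep thioredoxin reduced. Its level was 24.0, 24.1 and 25.2 FPKM in osteogenic medium and 39.0, 40.05 and 38.5 FPKM with metformin. Both groups were narrow and far apart. The mean rose from 24.4 ± 0.636 to 39.2 ± 0.802 FPKM (SD, n = 3), by 60.3%, with a log2 fold change of 0.66 (SE 0.075, limma adjusted p = 0.00146), and the call held in all 14 alternative fits. Srxn1 (ENSMUSG00000032802, chr2:152105516-152111376) encodes sulfiredoxin, which repairs over-oxidized peroxiredoxins. It was at 38.5, 37.6 and 38.7 FPKM in osteogenic medium and at 45.9, 49.2 and 47.5 FPKM with metformin. The groups did not overlap, and the rise was smaller than that of the other called members, with a log2 fold change of 0.31 (SE 0.077, limma adjusted p = 0.0320). The call of Srxn1 was lost with the replicate block (adjusted p = 0.137), with the block and the GC correction (adjusted p = 0.0984), without control replicate 2 (adjusted p = 0.0849) and without any one of the metformin replicates 1, 2 and 3 (adjusted p = 0.116, 0.158 and 0.134).

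Slc7a11 (ENSMUSG00000027737, chr3:49892526-50443614) encodes the cystine and glutamate exchanger xCT, which brings in the cysteine for glutathione. It was near the bottom of the measurable range, at 0.157, 0.0993 and 0.0621 FPKM in osteogenic medium and 0.322, 0.310 and 0.442 FPKM with metformin, from 40, 29 and 17 reads and 89, 94 and 120 reads. All samples with metformin were above all controls. The ratio of the means was 3.37 (0.106 ± 0.0480 and 0.358 ± 0.0733 FPKM, SD, n = 3, exact two-sided permutation p = 0.1, the smallest possible). With no filter on low values Slc7a11 was called higher (log2 fold change 0.30, limma adjusted p = 0.0307), as it was among genes with at least 10 reads in every sample (adjusted p = 0.0157). Its listed length of 13922 bases holds a stretch of 373 to 375 bases that is 95.2% to 96.5% identical to 9 other genes, Tuba1a, Tuba1b and Tuba1c among them, so reads from those genes and from Slc7a11 could be confused.

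Osgin1 (ENSMUSG00000074063, chr8:119434124-119446256) encodes a growth inhibitor that is induced by oxidative stress. It was at 8.81, 13.8 and 15.0 FPKM in osteogenic medium and at 13.2, 12.3 and 11.9 FPKM with metformin. The metformin samples fell between the lowest and the other controls. The log2 fold change was 0.02 (SE 0.19, 95% interval -0.42 to 0.47, limma adjusted p = 0.949), and without control replicate 1 it was -0.20 (adjusted p = 0.0603).

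**Figure D3:**
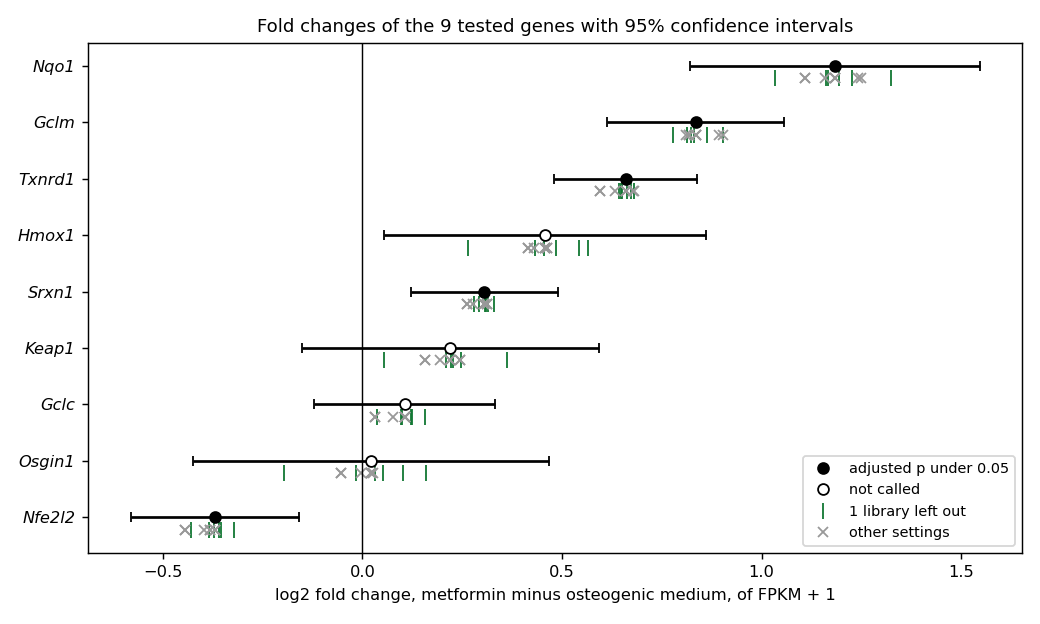
Log2 fold change of FPKM + 1 with its 95% confidence interval for the 9 tested members, filled where the adjusted p was under 0.05, with the values that leave out 1 library as green ticks and those of other settings as grey crosses. Nqo1, Gclm and Txnrd1 are the farthest to the right, at 1.18, 0.84 and 0.66, Nfe2l2 is to the left at -0.37, and the ticks of Osgin1 fall on both sides of 0.

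In each group the levels of the members covered a wide range. In osteogenic medium the order of mean FPKM was Gclc, Hmox1, Srxn1, Nfe2l2, Txnrd1, Nqo1, Osgin1, Gclm, Keap1 and Slc7a11. Gclc overlapped Hmox1 in that order, Nqo1 overlapped Osgin1, Osgin1 overlapped Gclm, and Gclm overlapped Keap1, and no other neighbours overlapped. With metformin the order was Hmox1, Gclc, Srxn1, Txnrd1, Nqo1, Nfe2l2, Gclm, Osgin1, Keap1 and Slc7a11, and no neighbours overlapped. The FPKM of Nfe2l2 was above those of Txnrd1 and Nqo1 in every control sample and below both in every sample with metformin. The FPKM of the 8 targets summed to 275 ± 14.8 in the controls and 362 ± 7.46 with metformin (SD, n = 3), and the groups did not overlap (exact two-sided permutation p = 0.1, the smallest possible). The 10 genes together took 0.103%, 0.105% and 0.113% of the reads in osteogenic medium and 0.130%, 0.132% and 0.133% with metformin.

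Control replicate 1 differed from the other controls in the level of several members. For Hmox1, Keap1 and Osgin1, whose transcripts have a GC content of 53.3%, 58% and 59.3%, control replicate 1 lay below the mean of the other controls by log2 values of -0.58, -0.50 and -0.65. For Nqo1, at 46.7% GC, it lay above by 0.42. Gclm, Gclc, Nfe2l2 and Slc7a11, between 40.7% and 47.7% GC, lay 0.10 to 0.20 above. These values are on the log2(FPKM + 1) scale, which hides most of the difference of Slc7a11. That gene was at 0.157 FPKM in control replicate 1 against 0.0993 and 0.0621 FPKM in the other controls. Txnrd1, at 49.7% GC, differed from the other controls by -0.03. Srxn1 differed by 0.01, although its GC content of 53.3% is that of Hmox1. The coefficients of variation were 21.5% to 26.3% in the controls for Hmox1, Nqo1, Keap1 and Osgin1, and 1.46% to 5.25% for these genes with metformin.

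Of 16 genes listed as Nrf2 regulators, partners or related factors, 15 were tested by limma. Of these, 0 were called higher and 2 lower (13.3%), beside 13.2% higher and 9.28% lower of all tested genes. The share called lower is near that of all genes, and the median log2 fold change was -0.09. Bach2, a repressor that competes for the same DNA elements, fell from 2.997, 2.16 and 2.94 FPKM to 0.979, 1.27 and 1.19 FPKM (log2 fold change -0.78, adjusted p = 0.00589). Sqstm1, the p62 autophagy receptor that draws Keap1 away and is itself a target of Nrf2, fell from 143, 188 and 222 FPKM to 120, 120 and 115 FPKM (log2 fold change -0.61, adjusted p = 0.0384). Of the 6 fits that left out 1 sample, Bach2 was called in 6 and Sqstm1 in 1, the fit without control replicate 1, and Sqstm1 was also lost with the block (adjusted p = 0.0681) and with no filter on low values (adjusted p = 0.0875). Cul3, the ligase scaffold that works with Keap1, had a log2 fold change of -0.09 and Bach1, the heme-regulated repressor of Hmox1, one of -0.15. The small Maf partners had -0.09 for Mafg, -0.19 for Mafk and 0.38 for Maff, none called. Without control replicate 1 Mafg (-0.31, adjusted p = 0.0133) and Mafk (-0.36, adjusted p = 0.00348) were called lower, and Maff was at 0.09 and not called.

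Of 36 further targets 33 were tested, 14 were called higher and 5 lower, beside the 13.2% and 9.28% of all tested genes, and the median log2 fold change was 0.22. The 5 largest rises were those of Ces2e, a carboxylesterase (1.27), Aldh3a1, an aldehyde dehydrogenase (1.08), Me1, malic enzyme (1.00), Tkt, transketolase (0.99), and Gstm2, a glutathione transferase (0.83). Me1 was at 17.8, 13.7 and 13.8 FPKM in the controls and 31.4, 31.8 and 30.0 FPKM with metformin, and makes NADPH. Tkt, of the pentose phosphate pathway, was at 9.02, 12.1 and 12.7 FPKM and then 23.2, 24.4 and 22.1 FPKM. The groups of both genes were far apart. The 5 that fell were Trp53inp1, a p53-induced stress protein (-1.09), Mgst1, a microsomal glutathione transferase (-0.53), the carbonyl reductases Cbr1 (-0.52) and Cbr3 (-0.41), and Abhd4, a lipase (-0.38). Ces2e, Aldh3a1, Me1, Tkt, Trp53inp1 and Cbr1 were called in all 14 alternative fits. With the limit of 1 on fold size 3 of the rises and 1 of the falls stayed called. Gstm2 and Abhd4 lost the call without any one of the metformin replicates 1, 2 and 3, Mgst1 without metformin replicate 3, and Cbr3 in every fit that left out 1 sample except the one without control replicate 1. Gstm2 (adjusted p = 0.0506) and Cbr3 (adjusted p = 0.0564) were also lost with no filter on low values, and Abhd4 (adjusted p = 0.0776) and Cbr3 (adjusted p = 0.102) with the block. Leaving out a metformin replicate left 6 targets called higher, and the replicate block left 9. Of the 29 further targets with a promoter window, 11 held TGACNNNGC, 37.9% beside 14% of all genes. With TGAGNNNGC, which was added after the windows had been seen, 16 held either form of the antioxidant response element. That was 55.2%, beside the 30.8% of all genes.

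**Figure D4:**
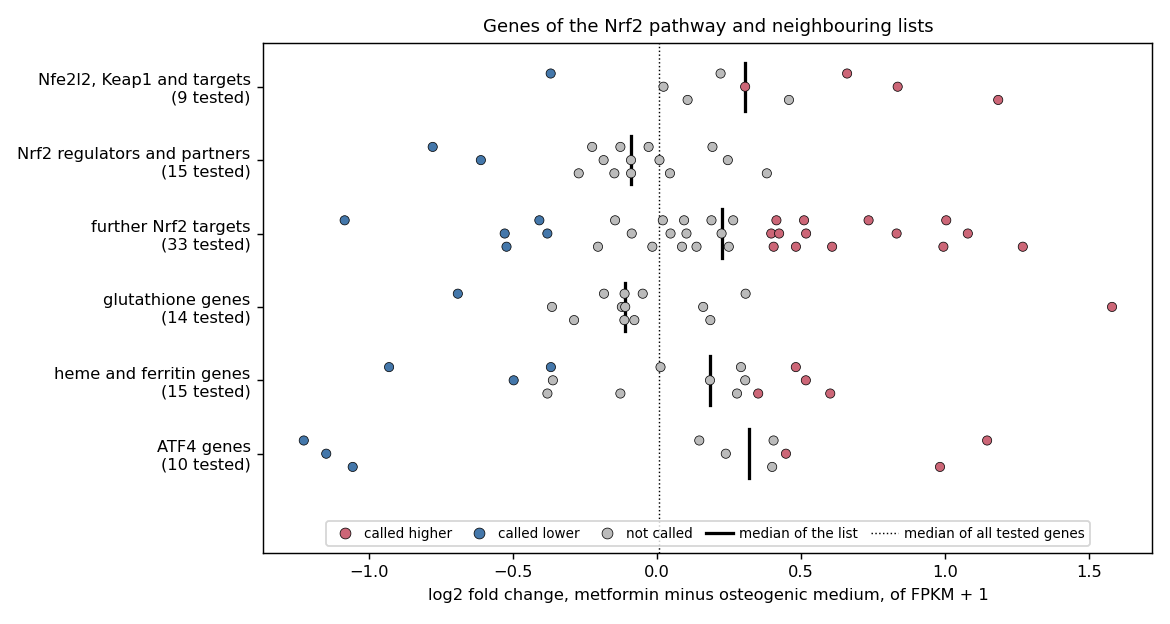
Log2 fold changes of FPKM + 1 for the tested genes of the members and 5 related lists, 1 point per gene, red for genes called higher, blue for genes called lower and grey for the rest, with the median of each list as a bar and that of all tested genes as a dotted line. The further Nrf2 targets hold 14 red and 5 blue points, and the regulators hold 2 blue points and no red one.

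Of 18 listed glutathione genes outside the ligase 14 were tested, and 1 was called higher and 1 lower, 7.14% each way beside 13.2% and 9.28% of all tested genes. These shares are not above those of all genes, and the median log2 fold change was -0.11. Chac1, which breaks glutathione down, rose from 5.18, 10.9 and 10.7 FPKM to 27.6, 29.0 and 25.8 FPKM (log2 fold change 1.58, limma adjusted p = 0.00600). Gpx3, the secreted glutathione peroxidase, fell from 0.936, 1.03 and 1.26 FPKM to 0.334, 0.152 and 0.368 FPKM (log2 fold change -0.69, adjusted p = 0.00822). Without control replicate 1 the counts were 2 higher and 4 lower. That fit also called more of all tested genes, 2969 higher and 2590 lower, against 1670 and 1177 with all samples. The larger counts are therefore not to be set beside the shares above.

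Of 15 tested genes around heme, the substrate of Hmox1, and ferritin, 4 were called higher (26.7%) and 3 lower (20%), beside 13.2% and 9.28% of all tested genes, and the median log2 fold change was 0.18. Blvra and Blvrb, which encode biliverdin reductases, rose by log2 fold changes of 0.52 (adjusted p = 0.0182) and 0.48 (adjusted p = 0.00492). Blvrb was at 9.96, 9.44 and 9.80 FPKM in the controls and 14.0, 13.6 and 14.3 FPKM with metformin, with no overlap. In the heme synthesis pathway Alad (0.60) and Cpox (0.35) rose, while Uros (-0.50) and Urod (-0.37), which act between them, fell. Slc40a1, the iron exporter ferroportin, which is also known as an Nrf2 target, fell from 4.19, 3.02 and 3.74 FPKM to 1.38, 1.41 and 1.49 FPKM (log2 fold change -0.93, adjusted p = 0.00192). Alad, Blvrb and Slc40a1 were called in all 14 alternative fits. Cpox was called in 5 of the 14, and was lost with GC correction, no filter, scaling by total reads and both block fits (adjusted p = 0.0705 to 0.116) as well as without control replicate 2 or any one of the metformin replicates 1, 2 and 3. Urod was lost without the same samples and with the block (adjusted p = 0.0774), Blvra without control replicate 2 or metformin replicates 1 or 2, and Uros without metformin replicates 1 or 3, each left out singly.

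Slc7a11 and Chac1 are also known targets of ATF4, the factor of the amino acid and stress response. Of 12 listed ATF4 genes 10 were tested, and 3 were called higher and 3 lower, 30% each way beside 13.2% and 9.28% of all tested genes, with a median log2 fold change of 0.32. Slc7a5, a neutral amino acid transporter (1.15), Psat1, of serine synthesis (0.98), and Asns, asparagine synthetase (0.45), rose. Nupr1, a stress-induced chromatin protein (-1.23), Ddit3, which encodes CHOP (-1.15), and the stress-induced factor Atf3 (-1.06) fell. Slc7a5, Psat1 and Atf3 were called in all 14 alternative fits. Asns lost the call without any one of the metformin replicates 1, 2 and 3, Ddit3 without control replicate 2 or metformin replicates 1 or 2, and Nupr1 in every fit that left out 1 sample except the one without control replicate 1. Asns was also lost with the block (adjusted p = 0.0550) and Nupr1 with no filter on low values (adjusted p = 0.0944).

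The genes whose profile over the 6 samples was most like that of Nfe2l2, by the root mean square difference of centred log2 values, were Tmem87a (0.0212), Atg16l1, Rbm7, Cdc26 and Zfand5 (0.0281). For Hmox1 they were P3h3 (0.0285), Gna12, Gatad2a, Arpc3 and Acd (0.0351). None of these 10 was in the lists.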

How the data were processed

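The authors deposited 1 table with a value per gene and sample, gene coordinates and gene lengths. It names no unit. Multiplied by gene length, 100% of the values above 0 were whole multiples of 1 sample-specific step (tolerance 0.001 reads), so the deposited values are FPKM, scaled by gene length and an effective library size by the authors. The aligner and counting settings are not given in the sources used here beyond Bowtie 0.12.2 in the submitters' processing notes, which also list mm8 and mm9. The coordinates instead match GENCODE M21 (GRCm38) for 53499 of 54409 shared identifiers and for all 10 members. There were 0 other per-sample columns.

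The members, gene lists and tests were chosen with earlier results of these data known. Samples were grouped by their labels, 3 in osteogenic medium and 3 with metformin. The authors' methods name DESeq2, a count model. FPKM are not counts, so limma 3.58.1 (R 4.3.3) with an intensity trend was fitted on log2(FPKM + 1), pseudocount 1, two-sided, over 12681 genes with a mean of at least 0.5 FPKM, with Benjamini-Hochberg adjustment over all of them and a threshold of 0.05. The fit was tested on simulated reads with the same spread for all genes and samples, no GC effect and no outlying sample. That test therefore does not cover a sample like control replicate 1. Single values were compared by exact permutation tests. P-values rest on 3 samples per group. At these depths 3 reads are 1.36e-05% to 1.63e-05% of a sample, and such floors cover counting error only.

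Named genes are the 10 members, the called list genes without overlap between groups (at most the 5 largest changes each way per list), and Cul3, Bach1, Mafg, Mafk, Maff and Sqstm1. Genes most like Nfe2l2 and Hmox1 were the 5 with the smallest root mean square difference of centred log2 profiles. No 2 samples agreed within sampling noise (lowest median chi-square per gene within a group 1.15, against 0.455 from counting). Near-identical stretches were called at 95% identity over 200 bases (BLAST+ 2.17.0). GC content of the longest transcript covered 99.9% of tested genes. RefSeq promoter windows were searched on both strands, first for TGACNNNGC. TGAGNNNGC and TGATGCAAA were added after the windows had been seen. Alternatives tried were no filter on low values or 10 reads in every sample, a pseudocount of 0.1, total-read scaling, voom on the recovered reads, GC correction within each library (spline with 5 degrees of freedom), the replicate block, a fold limit and leaving out each sample.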

Additional observations from a re-analysis of the deposited data

How the results depend on the processing

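The replicate numbers do not pair the samples: same-numbered samples had correlations of deviations of -0.0533, 0.000265 and -0.0549. With the replicate block 3 members were called higher and 0 lower, and 1161 and 698 of all genes. The block also gave 1 regulator lower and 9 further targets higher and 3 lower. GC correction gave 2425 genes lower in all (1887 with the block), 2 glutathione genes lower and 5 heme genes lower (5 with the block), and it moved all genes by a median of -0.05. It took all calls from 1670 higher and 1177 lower to 2062 and 2425. No filter gave 1 regulator lower, 9 further targets higher and 2 glutathione genes lower. A log2 limit of 1 left 468 genes higher and 168 lower, 1 member higher and 0 lower, 0 regulators lower, 3 further targets higher and 1 lower, 0 glutathione genes lower, 0 heme genes either way and 1 ATF4 gene higher. Voom on the recovered reads called 1776 genes higher and 1237 lower.

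Leaving out 1 sample gave 938 to 2969 genes higher and 495 to 2590 lower, the upper values without control replicate 1. It gave 3 to 5 members higher and 0 to 1 lower, 1 to 4 regulators lower, 6 to 15 further targets higher and 2 to 6 lower, 1 to 2 glutathione genes higher and 1 to 4 lower, 2 to 6 heme genes higher and 1 to 5 lower, and 2 to 4 ATF4 genes higher and 1 to 3 lower. Osgin1, never called, turned from 0.02 to -0.054 with GC correction (-0.054 with the block) and -0.0048 with scaling by total reads, and ranged from -0.20 to 0.16 with 1 sample left out. With 1 sample left out Cul3, never called, ranged from -0.18 to 0.032, and Mafg ranged from -0.31, called lower without control replicate 1, to 0.063. Leaving the log2 limit aside, Nqo1, Gclm and Txnrd1 kept call and direction in all 14 alternative fits, and Nfe2l2 and Srxn1 kept direction in all 14 and the call in 9 and 8. With the limit only Nqo1 of the members stayed called. Depth limits Slc7a11, at 17 to 120 reads, and the values of Hmox1, Keap1 and Osgin1 moved most without control replicate 1.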
